A study of Mus musculus with 6 samples.

Results

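Enamel is built from a small set of secreted proteins and then hardened as proteases remove them. The 8 genes followed here were *Amelx*, *Ambn* and *Enam*, which encode amelogenin, ameloblastin and enamelin, *Mmp20* and *Klk4*, which encode the 2 proteases that cut these proteins, and *Odam*, *Amtn* and *Tuft1*, which encode odontogenic ameloblast-associated protein, amelotin and tuftelin. They were found by their gene symbols and are 8 of the 31613 genes in the deposited table. All 8 were among the 16519 genes with enough counts for a test. They were picked because earlier results on these same libraries showed some of them to move with the dental epithelium markers in the third library of each group, and *Mmp20* and *Klk4* to move with the odontoblast markers. Their own levels are therefore a description and carry no test.

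The tissue was the dental papilla, the mesenchyme inside the tooth germ, whose outer cells become odontoblasts. Its cells (mDPCs) were collected from first mandibular molars at postnatal day 6, and their RNA was sequenced as 3 control libraries and 3 libraries of *Dmp1*-Cre;*Setd2* fl/fl mice, called mutant libraries here. The sample labels call the control mice wild type, whereas the methods name *Setd2* fl/fl mice as controls, so a floxed *Setd2* may be shared by both groups and Cre is named only in the *Dmp1*-Cre;*Setd2* fl/fl group. The *Dmp1* promoter drives Cre in the odontoblast layer, and other papilla cells of these mice keep *Setd2*, which encodes the enzyme that trimethylates H3K36. Each library was a pool of RNA from 3 biological replicates on a C57BL/6J background, and what a biological replicate was is not given. The mice listed for this collection are too few for 3 separate pools of 3 mice in each group, so libraries may share animals, and the spread between libraries may be technical in part. No library of ameloblasts was analysed here.

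During enamel formation, ameloblasts of the dental epithelium secrete amelogenin as the main matrix protein, together with ameloblastin and enamelin. MMP20 cuts these proteins while they are being secreted, and KLK4 degrades what is left as enamel matures. Both proteases are also known from odontoblasts, the mesenchymal cells that lay down dentin on the other side of the same boundary. Odontogenic ameloblast-associated protein and amelotin belong to maturing ameloblasts and to the epithelium that joins tooth and gum, and tuftelin is found in many tissues.

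The promoters of these genes are shown first, to set the matrix genes and the proteases side by side at their start sites. A RefSeq promoter table on build GRCm38.p6 held 7 of the 8 genes. All sequences run 5′ to 3′ on the strand of the gene, and a position of -1 is the base just before the start of the gene. In the 250 bases before the start, the sequence TGATTGG was present in *Amelx*, *Ambn*, *Enam*, *Odam* and *Amtn* and in neither *Mmp20* nor *Klk4*, which is 5 of 7. On either strand, 2375 of 32851 promoter windows of the same length (7.23%) held it. Its last 5 letters are CCAAT read on the other strand. CCAAT on either strand was in the same 5 genes and in 33.9% of all windows. Both searches were added after these windows had been read. The stretches of the 5 genes that hold TGATTGG, with 12 bases on either side and TGATTGG in capitals, begin at position -60 in *Amelx*, -49 in *Ambn*, -72 in *Enam*, -64 in *Odam* and -68 in *Amtn*, counted from the first capital letter.
Amelx: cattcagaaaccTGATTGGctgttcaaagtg
Ambn: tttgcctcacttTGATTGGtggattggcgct
Enam: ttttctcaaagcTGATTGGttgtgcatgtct
Odam: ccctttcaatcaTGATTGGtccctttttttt
Amtn: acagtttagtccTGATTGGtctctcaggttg

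The full windows of the most abundant matrix gene and of both proteases show the contrast. Capitals mark TATAAA on the strand of the gene, TGATTGG, and CCAAT on either strand. In *Amelx* (chrX:169187210-169187459, minus strand) TATAAA begins at -31 and overlaps a second reversed CCAAT that begins at -26. In *Mmp20* (chr9:7627981-7628230, plus strand) TATAAA begins at -58, and the *Klk4* window (chr7:43880910-43881159, plus strand) holds none of the 3 motifs.
Amelx: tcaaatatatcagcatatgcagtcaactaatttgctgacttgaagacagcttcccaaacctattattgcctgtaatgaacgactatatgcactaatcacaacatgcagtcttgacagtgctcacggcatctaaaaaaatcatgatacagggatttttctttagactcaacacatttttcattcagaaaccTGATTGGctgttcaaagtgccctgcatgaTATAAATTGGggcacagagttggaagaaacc
Mmp20: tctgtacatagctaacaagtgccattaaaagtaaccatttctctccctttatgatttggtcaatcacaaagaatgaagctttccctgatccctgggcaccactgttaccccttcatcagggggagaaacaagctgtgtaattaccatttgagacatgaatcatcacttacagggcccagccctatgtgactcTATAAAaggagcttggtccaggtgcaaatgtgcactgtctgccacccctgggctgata
Klk4: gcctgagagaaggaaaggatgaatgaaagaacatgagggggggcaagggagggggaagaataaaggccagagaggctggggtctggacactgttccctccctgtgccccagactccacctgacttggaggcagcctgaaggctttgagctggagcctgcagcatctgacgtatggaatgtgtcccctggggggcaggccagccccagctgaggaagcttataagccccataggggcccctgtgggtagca

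TATAAA was found in *Amelx*, *Enam* and *Mmp20*, 3 of 7, and in 7.59% of all windows. The core letters of a RUNX site, TGTGGT on either strand, were found in *Odam* alone, at -143 on the other strand, and in 14.0% of all windows. GC content was 59.6% in the *Klk4* window and 45.6% in the *Mmp20* window, against 37.2% to 42.0% in the other 5. These matches describe letters in a window and are not binding sites.

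The third library of each group also stood apart in markers other than the enamel genes, in lists chosen with earlier results of these data known. Total counts were even, from 18557647 to 19210750 per library. The summed level of the dental epithelium markers was 824, 631 and 2103 CPM (counts scaled to library size, with TMM factors) in control replicates 1, 2 and 3, and 790, 792 and 2989 CPM in mutant replicates 1, 2 and 3. Of its 20 tested genes, 18 were highest in replicate 3 of both groups, against 29.7% of all genes tested. *Krt14*, a keratin of basal epithelial cells, went from 200, 142 and 448 CPM in controls to 183, 180 and 626 CPM in mutant libraries. Endothelium markers were also highest in replicate 3 of both groups, in 8 of 9 genes, with summed levels of 353 to 564 CPM in control and 354 to 890 CPM in mutant libraries.
Across all genes, edgeR called 448 of 16519 genes lower (2.71%) and 181 higher (1.1%) by the thresholds of the study, which are p under 0.05 before adjustment and a size of 0.58 or more on the log2 scale. At an adjusted p under 0.05 it called 0 lower (0.0%) and 0 higher (0.0%), while 729 were lower and 523 higher by p under 0.05 without adjustment. After adjustment DESeq2 gave 117 and 24. When the replicate number entered as a block, 722 and 339 passed the study's thresholds, and with replicate 3 of both groups left out 1261 and 750 did. *Setd2* itself had a mean of 95.5 CPM in the control libraries (SD 3.14, n = 3) and of 98.9 CPM in the mutant libraries (SD 3.07, n = 3). That count covers the whole gene in every cell collected and does not check the genotype.

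Of the 8 enamel genes, 0 passed the study's thresholds downward and 0 upward, and the rule that picked them used this contrast, so nothing is read from that count. *Mmp20* and *Klk4* did pass them downward by voom, without mutant replicate 3 and with replicate 3 of both groups left out. *Amtn* did so by DESeq2, without control replicate 3 and with replicate 3 of both groups left out. The third libraries were also part of the rule that picked the 8, so nothing is read from these passes either. In 1 gene, *Klk4*, every mutant library was below every control library, as were 1319 of all genes tested (7.98%), and in 0 genes was every such library above, as were 1200 (7.26%). Without TMM scaling these background counts were 851 and 1883. The median log2 fold change of all 8 was 0.32, beside 0.02 over all genes tested. Of the 8, 3 had a negative log2 fold change, and the share over all genes was not computed. Nothing is read from these values either, since the pick used this contrast. In pooled tissue RNA, fewer cells of a type and less RNA per cell cannot be told apart, and this holds for each level below.

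**Figure D1:**
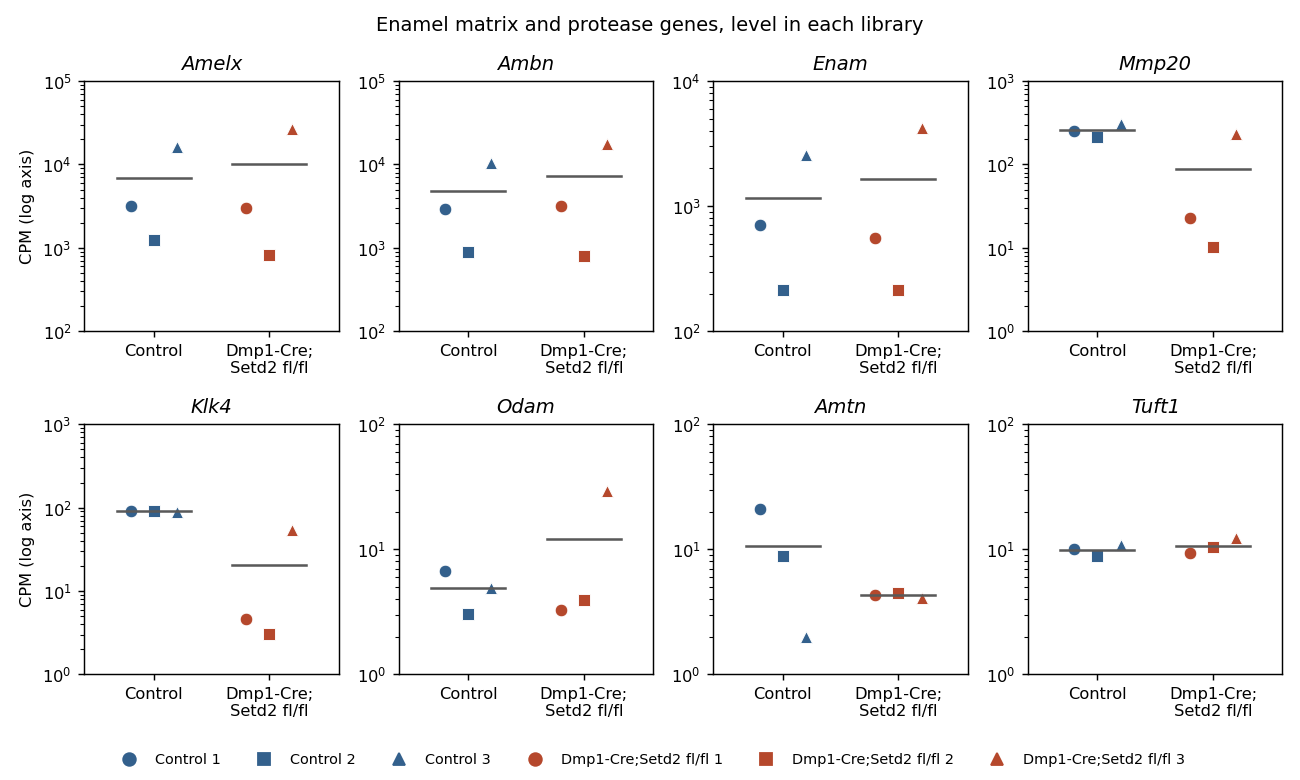
Level of the 8 enamel genes in every library, in CPM on log axes that differ between panels, with control libraries in blue and mutant (*Dmp1*-Cre;*Setd2* fl/fl) libraries in red, a circle, square or triangle for replicate 1, 2 or 3, and a bar at the group mean. *Amelx*, *Ambn* and *Enam* were highest in replicate 3 of both groups, whereas *Mmp20* and *Klk4* were low in mutant replicates 1 and 2.

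The 3 genes of the secreted matrix varied more within a genotype than between genotypes. *Amelx*, which the deposited table places on chromosome X from 169176114 to 169187200 on the minus strand, was at 3193, 1251 and 16218 CPM in control replicates 1, 2 and 3. It was at 3044, 823 and 26408 CPM in mutant replicates 1, 2 and 3. Replicate 3 was the highest and replicate 2 the lowest library of both groups, and the groups overlapped. The highest library was 13.0 times the lowest among controls and 32.1 times the lowest among mutant libraries, beside a log2 fold change of 0.55 with a standard error of 1.37.
*Ambn* (chromosome 5, 88455991 to 88468531, plus strand) was at 2955, 887 and 10378 CPM in controls and 3135, 787 and 17776 CPM in mutant libraries, and its log2 fold change was 0.61 (standard error 1.23). *Enam* (chromosome 5, 88487975 to 88506049, plus strand), which encodes the largest of these proteins, was at 708, 212 and 2544 CPM in controls and 556, 213 and 4208 CPM in mutant libraries, and its log2 fold change was 0.52 (standard error 1.24). Both kept the order of libraries seen for *Amelx*, with replicate 3 on top and replicate 2 at the bottom of each group. Per kilobase of exon, mean control levels were 6819 CPM for *Amelx*, 2470 CPM for *Ambn* and 210 CPM for *Enam*.

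Between libraries of the same number, only in replicate 3 were all 3 matrix genes higher in the mutant library, and in replicates 1 and 2 the sign was mixed. The log2 difference of mutant from control was -0.07, -0.60 and 0.70 for *Amelx* in replicates 1, 2 and 3. It was 0.09, -0.17 and 0.78 for *Ambn*, and -0.35, 0.01 and 0.73 for *Enam*. In the fit with the replicate block, log2 fold changes were 0.01 for *Amelx*, 0.23 for *Ambn* and 0.13 for *Enam*, with standard errors of 0.28, 0.24 and 0.21. With replicate 3 of both groups left out they were -0.19, 0.04 and -0.25, so the direction turned for *Amelx* and *Enam*. Without mutant replicate 3 alone they were -1.84, -1.28 and -1.59, and without control replicate 3 alone they were 2.17, 1.90 and 1.83.

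**Figure D2:**
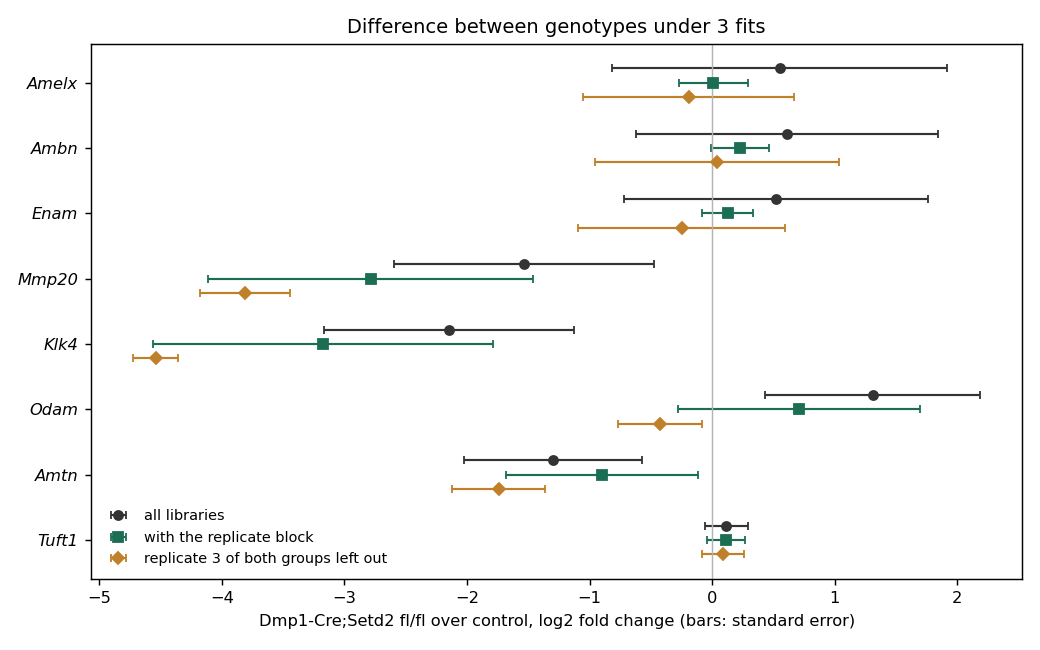
Log2 fold change of mutant over control for the 8 enamel genes (x axis, log2 units, bars of 1 standard error) in the fit of all libraries, in the fit with the replicate block and in the fit that leaves out replicate 3 of both groups. *Amelx*, *Ambn* and *Enam* lie near 0 in the last 2, while *Mmp20* and *Klk4* are at -3.81 and -4.54 without replicate 3.

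The matrix transcripts took a sizeable part of the third libraries. *Amelx*, *Ambn* and *Enam* together took 0.682%, 0.232% and 2.72% of all counts in control replicates 1, 2 and 3 and 0.745%, 0.185% and 4.65% in mutant replicates 1, 2 and 3. The lowest of these shares has a 95% Wilson interval of 0.183% to 0.187%, which covers counting error only. Ranked by raw count, *Amelx* was gene 3 in control replicate 3 and gene 2 in mutant replicate 3, and gene 47 and gene 126 in replicate 2 of the same groups.
Within a library the proportions of these transcripts moved far less than their levels. There were 0.240, 0.239 and 0.245 counts of *Enam* per count of *Ambn* in controls and 0.177, 0.271 and 0.237 in mutant libraries. *Amelx* gave 1.08, 1.41 and 1.56 counts per count of *Ambn* in controls and 0.971, 1.05 and 1.49 in mutant libraries. Against *Krt14* the matrix genes were not in a fixed proportion, since *Amelx* gave 16.0, 8.83 and 36.2 counts per count of *Krt14* in controls and 16.6, 4.57 and 42.2 in mutant libraries. The part of dental epithelium in the levels of *Amelx*, *Ambn* and *Enam* was not tested.

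The gene *Amelx* lies inside *Arhgap6*, a gene for a GTPase-activating protein, on the opposite strand (chromosome X, 168795099 to 169304435, plus strand), and the reads were counted without regard to strand. *Arhgap6* was at 1.38, 1.53 and 1.98 CPM in controls and 2.06, 1.64 and 3.20 CPM in mutant libraries. Reads of the pair cannot be told apart by strand, and *Arhgap6* was at most 3.20 CPM where *Amelx* was at 26408 CPM.

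The proteases followed another pattern. *Mmp20* (chromosome 9, 7628231 to 7674979, plus strand), a matrix metalloprotease of the secretory stage, was at 255, 215 and 303 CPM in control replicates 1, 2 and 3. In mutant libraries it was at 22.8, 10.2 and 234 CPM. Replicates 1 and 2 of that group were below all controls, and replicate 3 was within the control range, at 90.7% of the control mean. The mean of control replicates 1 and 2 was 14.2 times that of mutant replicates 1 and 2.
*Klk4* (chromosome 7, 43881160 to 43885804, plus strand), a serine protease of the maturation stage, was at 91.5, 90.4 and 89.8 CPM in controls, the tightest control group of the 8 genes. It was at 4.64, 3.08 and 53.8 CPM in mutant libraries. All 3 were below every control, with replicate 3 at 59.4% of the control mean and the mean of control replicates 1 and 2 at 23.6 times that of mutant replicates 1 and 2. Raw counts of *Klk4* were 97, 58 and 991 in these libraries and 1584 to 1724 in controls.

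Over all libraries the log2 fold change was -1.54 for *Mmp20* (standard error 1.06) and -2.15 for *Klk4* (standard error 1.02). With the replicate block these were -2.78 (standard error 1.33) and -3.18 (standard error 1.39), and with replicate 3 of both groups left out they were -3.81 (standard error 0.37) and -4.54 (standard error 0.18). Within replicate numbers, *Mmp20* differed by -3.48, -4.38 and -0.37 and *Klk4* by -4.27, -4.83 and -0.74 on the log2 scale in replicates 1, 2 and 3. Mutant replicate 3 thus decided the size of both differences, and the log2 fold change was negative in each of these fits. Replicate numbers are labels and do not set libraries as pairs. *Mmp20* in mutant replicate 3 (234 CPM) was above control replicate 2 (215 CPM), so that pair would have the other sign.
*Dspp*, which encodes the main non-collagen protein of dentin and marks odontoblasts, had the same order of libraries within the mutant group. It was at 14165, 14372 and 13900 CPM in controls and 436, 215 and 5299 CPM in mutant libraries, with replicate 3 at 37.5% of the control mean. *Mmp20* counts per 1000 *Dspp* counts were 18.0, 15.0 and 21.8 in controls and 52.3, 47.7 and 44.1 in mutant libraries, so the groups did not overlap in this proportion. *Klk4* counts per 1000 *Dspp* counts were 6.46, 6.29 and 6.46 in controls and 10.6, 14.3 and 10.2 in mutant libraries, again without overlap. *Klk4* gave 0.359, 0.420 and 0.297 counts per count of *Mmp20* in controls and 0.203, 0.301 and 0.230 in mutant libraries. *Dspp* itself was lower in every mutant library, so a gene that falls less than *Dspp* tends to a higher proportion there. The lack of overlap is therefore not read as a trait of the proteases, and no share over all genes was computed. These proportions were formed after the levels had been seen and were not tested.

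**Figure D3:**
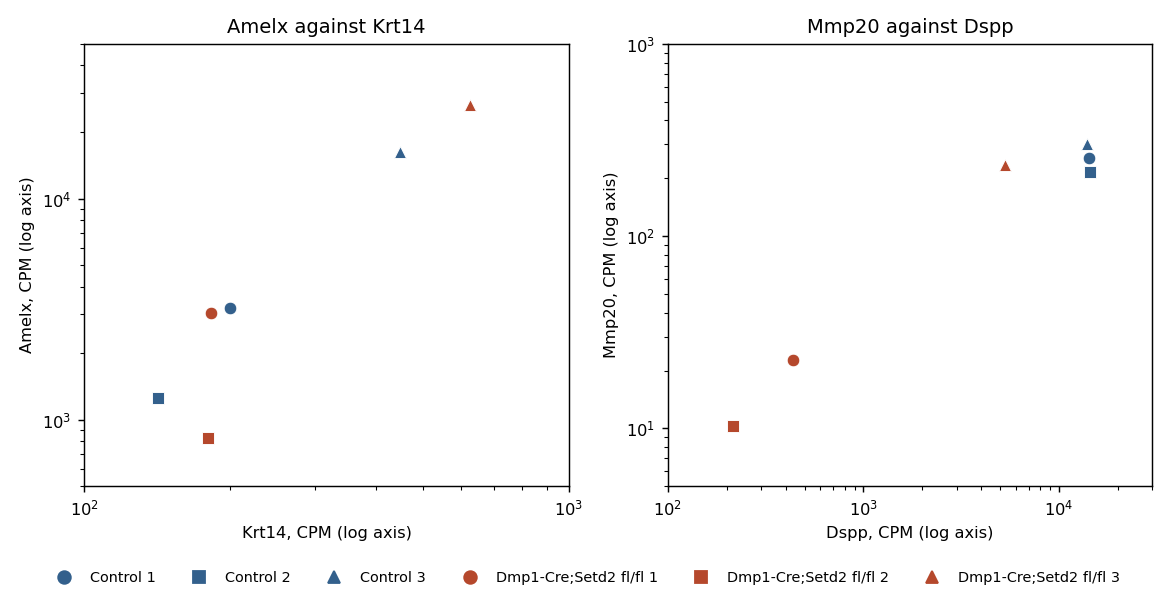
*Amelx* against *Krt14* and *Mmp20* against *Dspp* in the 6 libraries, in CPM on log axes, with control libraries in blue, mutant libraries in red, and a circle, square or triangle for replicate 1, 2 or 3. Replicate 3 of both groups lies at the top right for *Amelx* and *Krt14*, and mutant replicates 1 and 2 lie at the lower left for *Mmp20* and *Dspp*.

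The odontoblast markers gave the reference for that pattern. Of 22 tested genes, 14 fell at the study's thresholds, against 2.71% of all genes tested, and 0 rose. The median log2 fold change of the 22 was -1.23 beside 0.02 over all genes, and this list was chosen with results of these libraries known. With the replicate block 9 fell. Those that fell included *Ptprz1*, a receptor-type phosphatase (log2 fold change -2.31, standard error 0.33), *Nes*, an intermediate filament of odontoblasts (-1.21, standard error 0.29), *Bglap2*, an osteocalcin (-3.92, standard error 0.96), *Phex*, an endopeptidase of phosphate control (-3.08, standard error 0.81), and *Dspp* (-2.83, standard error 1.17). The others were *Bglap*, *Col1a1*, *Col1a2*, *Creb3l1*, *Dkk1*, *Dmp1*, *Enpp1*, *Sall1* and *Wisp1*. Not passing were *Alpl* (log2 fold change 0.01), *Ank* (0.34), *Dlx3* (0.04), *Ifitm5* (-0.06), *Panx3* (-0.09), *Runx2* (-0.07), *Smpd3* (-0.51) and *Sp7* (-0.45). After adjustment over all genes by edgeR, 0 of the 22 were lower.
Summed odontoblast marker levels were 100720, 102010 and 118300 CPM in controls and 12426, 10012 and 58820 CPM in mutant libraries. None of the 20 tested dental epithelium markers passed the study's thresholds in either direction, against 2.71% lower and 1.1% higher over all genes tested. The median of these markers was 0.38 on the log2 scale. That median was 1.13 without control replicate 3 and -0.55 without mutant replicate 3. *Epcam*, an adhesion protein of epithelia and the marker with the smallest p, was at 11.1, 8.05 and 10.7 CPM in controls and 2.06, 2.07 and 10.9 CPM in mutant libraries, unlike *Amelx*. *Grhl2* and *Esrp1*, epithelial regulators, and *Sostdc1*, a secreted inhibitor, came next, and all 3 were highest in replicate 3 of both groups.

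The remaining enamel genes were low and did not follow either pattern throughout. *Odam* (chromosome 5, 87885029 to 87894174, plus strand) was at 6.68, 3.05 and 4.93 CPM in controls and 3.30, 3.92 and 29.2 CPM in mutant libraries. Only replicate 3 of the second group stood above the rest, at 5.92 times control replicate 3. Its log2 fold change was 1.31 (standard error 0.88) with all libraries and -0.43 (standard error 0.34) with replicate 3 of both groups left out.
*Amtn* (chromosome 5, 88376108 to 88385916, plus strand) was at 21.0, 8.84 and 1.98 CPM in controls and 4.35, 4.51 and 4.07 CPM in mutant libraries. Here control replicate 3 was the lowest library of all and control replicate 1 the highest, and the groups overlapped. The log2 fold change was -1.30 (standard error 0.72), and -0.33 (standard error 0.59) without control replicate 1.
*Tuft1* (chromosome 3, 94612757 to 94658872, minus strand) was at 9.97, 8.79 and 10.8 CPM in controls and 9.37, 10.5 and 12.2 CPM in mutant libraries. Its highest library was 1.30 times its lowest in the second group, and its log2 fold change was 0.12 (standard error 0.17). Of the 8 genes, 5 were highest in replicate 3 of both groups, namely *Amelx*, *Ambn*, *Enam*, *Mmp20* and *Tuft1*, against 29.7% of all genes. The third libraries were part of the rule that picked the 8, so nothing is read from this count.

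*Odam*, *Amtn*, *Ambn* and *Enam* lie in this order on chromosome 5, with 481933, 70074 and 19443 bases between neighbours, and belong with *Amelx* to the secretory calcium-binding phosphoprotein family. Closeness on the chromosome did not go with a shared pattern in all of them. The likeness of 2 genes was measured as the root mean square difference of their log2 CPM over the 6 libraries, each gene less its own mean, in log2 units. *Ambn* and *Enam* were 0.19 apart, and both were 0.26 to 0.27 from *Amelx* on another chromosome. *Amtn* was 2.30 from *Ambn* and 2.28 from *Enam*, and *Odam* was 1.12 and 1.05 from them. *Mmp20* and *Klk4*, on separate chromosomes, were 0.35 apart and 1.68 to 2.08 from the 3 matrix genes.
Among the median profiles of the marker and pathway lists, the dental epithelium list was nearest to *Amelx* (1.08), *Ambn* (0.95), *Enam* (0.89) and *Odam* (0.64). The odontoblast list was nearest to *Mmp20* (1.16) and *Klk4* (1.30). *Mmp20* and *Klk4* were 1.75 and 1.99 from the dental epithelium list. The macrophage and osteoclast list was nearest to *Amtn* (1.00), and the list of processing partners was nearest to *Tuft1* (0.17). The enamel genes were picked because some moved with the dental epithelium markers, and *Mmp20* and *Klk4* with the odontoblast markers. Which list was nearest partly restates that pick, so nothing is read from it. All points rest on the same 6 libraries, so these distances are descriptions.

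**Figure D4:**
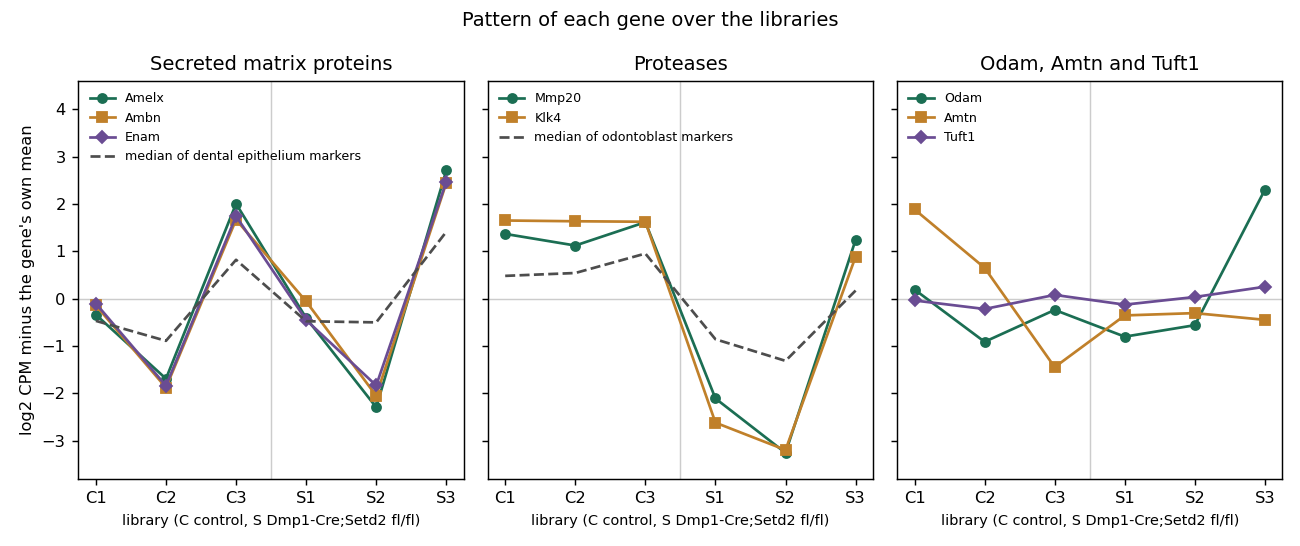
Log2 CPM of each enamel gene less its own mean (y axis, log2 units) in the 6 libraries (x axis, C for control and S for mutant, numbered by replicate), with the median of the dental epithelium or odontoblast markers dashed. The lines only join the points of a gene; *Amelx*, *Ambn* and *Enam* peak at C3 and S3, and *Mmp20* and *Klk4* dip at S1 and S2.

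The genes nearest to each enamel gene over all 16514 compared showed how many shared its pattern. Nearest to *Amelx* were *Bnc1*, an epithelial zinc finger protein (0.07), *Chst1*, a sulfotransferase (0.24), and *Gm26888* (0.24). *Bnc1* was at 3.08, 1.21 and 16.4 CPM in controls and 2.92, 0.636 and 24.7 CPM in mutant libraries. Besides other matrix genes, *Itgb6*, an epithelial integrin subunit, was nearest to *Enam* (0.17) and second to *Ambn* (0.23).
Nearest to *Mmp20* were *S1pr5*, a sphingosine phosphate receptor (0.13), *Bmp8a*, a bone morphogenetic protein (0.24), and *Kcnn4*, a calcium-activated potassium channel (0.27). Nearest to *Klk4* were *Adamtsl2* (0.15), *Loxl4*, a lysyl oxidase (0.24), and *Kcnn4* (0.27). *Kcnn4* was at 78.5, 82.6 and 121 CPM in controls and 6.55, 3.66 and 55.0 CPM in mutant libraries. *Odam* had *Cst6*, a cystatin (0.38), *Gm37120* (0.46) and *Gm15675* (0.50) nearest. *Amtn* had *D130019J16Rik* (0.45), *Gm37677* (0.45) and *4930451E10Rik* (0.49) nearest, all at or below 1.38 CPM in every library. *Tuft1* had *Rexo2*, *Sgk3* and *Rbm22* at 0.03 to 0.04, but 13617 genes were within 0.5 of it, against 19 to 30 for the matrix genes and proteases.

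Other genes of enamel formation, most of them known from inherited enamel defects, were followed for the patterns of *Amelx* and *Mmp20*, and 11 of the 22 that could be tested were near neither. The list held 26 such genes in all. Of the 22 tested, 1 fell at the study's thresholds, against 2.71% of all genes tested, and 0 rose, against 1.1%. Their median log2 fold change was -0.03, and it was -0.89 without mutant replicate 3. *Ltbp3*, a TGF-beta binding protein, had the smallest p and a log2 fold change of -0.40 (standard error 0.14), and *Car6*, a carbonic anhydrase, had 0.72 (standard error 0.41). Neither passed the study's thresholds.
With a limit of 1 log2 unit, chosen after the values were seen, 7 of the 22 were near *Amelx*, among them *Acp4*, *Cftr*, *Col17a1*, *Itgb6*, *Lama3* and *Lamb3*. Near *Mmp20* were 4, among them *Fam20a*, *Relt* and *Slc13a5*, and the others were near neither. Of all other genes tested, 0.902% were as near to *Amelx* and 0.914% to *Mmp20*. *Acp4*, an acid phosphatase, was at 18.4, 7.26 and 146 CPM in controls and 20.7, 3.18 and 236 CPM in mutant libraries. *Slc13a5*, a citrate transporter, was at 141, 118 and 242 CPM in controls and 19.7, 4.98 and 209 CPM in mutant libraries. *Relt*, a receptor of the tumor necrosis factor family, was at 92.6, 93.1 and 134 CPM in controls and 15.7, 8.22 and 102 CPM in mutant libraries. *Fam20a*, which activates the kinase of secreted phosphoproteins, was at 83.9, 86.6 and 170 CPM in controls and 13.8, 4.35 and 144 CPM in mutant libraries. In the last 3, as in *Mmp20*, mutant replicates 1 and 2 lay below all controls and replicate 3 lay above the lowest control.

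The wider phosphoprotein family, to which dentin and milk proteins also belong, had 7 tested genes besides the 8. Of these 4 fell, against 2.71% of all genes tested, and 0 rose, against 1.1%. *Dspp* and *Dmp1* are also in the odontoblast list. The median log2 fold change was -1.23 in the main fit. It was -0.56 with no filter, -0.80 with at least 10 counts in every library and -0.83 without control replicate 2. With the replicate block 2 fell. Those that fell were *Dspp*, *Dmp1* (log2 fold change -1.75, standard error 0.59), *Sparc*, a collagen-binding glycoprotein (-1.43, standard error 0.42), and the casein gene *Csn3* (-1.23, standard error 0.48), which was at or below 2.95 CPM in every library.
Among 14 tested processing partners of enamel proteins, 1 fell, against 2.71% of all genes tested, and 0 rose, against 1.1%. Their median log2 fold change was 0.10. The gene that fell was *Timp1*, an inhibitor of metalloproteases, at 19.0, 19.7 and 22.7 CPM in controls and 7.94, 8.54 and 15.2 CPM in mutant libraries (log2 fold change -0.96, standard error 0.26). *Mmp14*, a membrane metalloprotease, had -0.53 (standard error 0.15), *Timp2*, another inhibitor, 0.26 (standard error 0.13), and *A2m*, a plasma protease inhibitor, -0.47 (standard error 0.29). *Fam20c*, the kinase of secreted phosphoproteins, chosen after its values were seen, was at 118, 123 and 193 CPM in controls and 29.0, 18.6 and 145 CPM in mutant libraries and was 0.70 from *Mmp20*.

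Markers of other cells did not pass the thresholds in this fit. Among 6 osteoblast and alveolar bone, 9 endothelium, 10 macrophage and osteoclast, and 6 red blood cell markers tested, 0 fell and 0 rose. Over all genes tested 2.71% fell and 1.1% rose. In lists this small a count of 0 lies near those shares, so nothing is read from it. Their median log2 fold changes were -0.12, 0.40, 0.32 and -0.10. Summed macrophage and osteoclast levels were 839 to 1080 CPM in control and 709 to 1309 CPM in mutant libraries and were lowest in replicate 3 of both groups. The part of these cells in the levels of the enamel genes was not tested.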

How the data were processed

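RNA-seq counts of 6 mDPC libraries were analysed. The authors deposited whole-number counts, not normalized, which HTSeq made from HISAT2 alignments with strand ignored. Bowtie2, DESeq2 and GRCm39 also stand in the submitters' processing notes. The authors' own comparison is in the same deposited table (p-values, log2 values, fold ratios and a mean signal) and was not used. Positions are the table's own. Of 24531 genes shared with RefSeq on GRCm38.p6, 96.4% had a start or an end within 1000 bases, against 3.38% of 30436 shared with GENCODE on GRCm39. Every row names a gene.

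Counts were compared by edgeR 4.0.16 in R 4.3.3 after filterByExpr at 10 counts and TMM scaling. The quasi-likelihood test was robust and had no covariates, and p-values were adjusted after Benjamini and Hochberg for 16519 genes. Library sizes for CPM carry the TMM factors, and log2 CPM have a prior count of 2. Standard errors are the size of the log2 fold change divided by the square root of its F statistic. Exon lengths came from GENCODE. The main edgeR fit, its forms with the block and with no filter, voom and DESeq2 were run on simulated data with known changes. The other alternatives were not, and the outcome is not reported here. Counting error is small at this depth against the spread between libraries, and every pair of libraries differed beyond it (lowest chi-square per degree of freedom 6.17).

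The 8 genes and all lists were chosen with earlier results of these data known. Named genes were the 8, *Arhgap6*, *Setd2*, *Dspp* and *Krt14*, the 3 genes nearest in pattern to each of the 8, in each list up to 4 genes of smallest p, and every gene called in the epithelium, odontoblast, enamel formation and phosphoprotein lists. The odontoblast markers that were not called were added so that the whole tested list is named. Those with the smallest p in the 4 lists of bone, endothelium, blood and macrophage cells are not given singly, and some genes that the rule names are not reported here. Replicate numbers come from the sample labels. Deviations of same-numbered libraries from their group means correlated across genes at 0.453, 0.465 and 0.663, so a fit with this number as a block is given as an alternative beside the unblocked main results, although control replicate 2 and mutant (*Dmp1*-Cre;*Setd2* fl/fl) replicate 1 gave 0.455. Alternatives were RLE size factors, DESeq2 1.42.0, voom with quality weights (limma 3.58.1), no filter, at least 10 counts in every library, the block, each library left out, and replicate 3 of both groups left out. No protein sequences were used here.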

Additional observations from a re-analysis of the deposited data

How the results depend on the processing

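Numbers of genes called, over all genes and in each list, and fold changes of the 8 genes were recomputed under each alternative. Of these values 311 stayed within 1.5 times the count, or within 1 SD between replicates for a fold change. Counts of 0 that stayed at 0 are among the 311. The other 79 moved, and the cause was not tested. At the study's thresholds, genes lower and higher numbered 1101 and 444 by voom, 722 and 339 with the replicate block, and 1261 and 750 with replicate 3 of both groups left out; 338 were higher with no filter. At an adjusted p under 0.05 these were 117 and 24 by DESeq2, 988 and 397 by voom, 4 and 2 with no filter, 132 and 29 with the block, and 749 and 389 with replicate 3 of both groups left out. Leaving out 1 library gave 282 to 1161 lower and 83 to 677 higher at the study's thresholds, and 0 to 447 and 0 to 114 after adjustment, all 4 highest without mutant replicate 3.

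With the block, 1 dental epithelium marker was higher, 9 odontoblast markers lower, 1 enamel formation gene higher and 2 phosphoprotein genes lower. With replicate 3 of both groups left out, 1 epithelium marker was lower and 1 higher, 1 odontoblast, 1 osteoblast, 2 macrophage and osteoclast and 1 enamel formation gene were higher and 6 enamel formation genes lower, and 4 processing partners were lower and 1 higher. By voom, 1 epithelium marker, 5 enamel formation genes and 3 processing partners were lower, and 1 red blood cell and 1 enamel formation gene were higher. With no filter, 1 epithelium marker, 7 odontoblast markers, 0 enamel formation genes and 2 phosphoprotein genes were lower. Leaving out 1 library gave 6 to 14 odontoblast markers lower (6 without mutant replicate 1), 0 to 6 enamel formation genes lower, 1 to 3 phosphoprotein genes lower, 1 to 4 processing partners lower and 0 to 3 macrophage and osteoclast markers higher. It gave 0 to 1 in either direction for epithelium markers, and 0 to 1 higher for odontoblast, osteoblast, endothelium, enamel formation and processing genes.

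The log2 fold change by voom was -3.24 for *Mmp20*, -4.11 for *Klk4* and -0.029 for *Odam*, and with replicate 3 of both groups left out -3.81, -4.54 and -0.43. Leaving out 1 library gave -1.84 to 2.17 for *Amelx*, -1.59 to 1.83 for *Enam*, -3.96 to -1.01 for *Mmp20*, -4.55 to -1.64 for *Klk4* and -0.44 to 1.76 for *Odam*. *Ambn*, *Amtn* and *Tuft1* stayed within 1 SD, although *Ambn* turned negative without mutant replicate 3. *Amtn* was at -1.29 by DESeq2, -1.79 without control replicate 3 and -1.74 with replicate 3 of both groups left out. The nearest list of each of the 8 genes was the same with a prior count of 0.5. Without TMM scaling, the mean of *Klk4* in controls was 88.1 CPM.

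With 3 pooled libraries a group, and replicate 3 apart in both, the levels of the matrix genes cannot separate genotype from the make-up of each pool. Libraries left out 1 at a time leave 2 in a group. Protein level and the cells of origin were not measured in these data.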
